A study of Homo sapiens with 6 samples.

Results

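The isocitrate dehydrogenases and the enzymes around them at the entry of the tricarboxylic acid (TCA) cycle were described in U2OS cells, a human osteosarcoma line. Cells that received a short hairpin RNA (shRNA) against E4F1, a zinc finger transcription factor, were compared with cells that received a scramble shRNA as control. The group held 9 genes: CS, ACO1, IDH1, IDH2, IDH3A, IDH3B, IDH3G, OGDH and DLST, out of 58219 gene rows in the deposited count tables. They were chosen by enzyme name, with earlier results of the same comparison known, so their differences between groups are given as descriptions without a p-value. All 9 passed the filter on low counts and were among the 15765 genes tested.

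Each group had 3 libraries. Per the labels, both groups were infected for 24 h and kept under puromycin for 48 h, and RNA was taken 72 h after infection from 3 independent pools of cells. Both groups therefore carried an shRNA and had been through selection. Whether same-numbered pools of the 2 groups were handled together is not stated in the labels. The p-values below reflect only how much the 3 pools of a group varied, and 3 libraries against 3 allow no exact permutation p under 0.1 for a single value. These are bulk samples, in which fewer cells of a kind and less RNA per cell cannot be told apart.

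The TCA cycle begins when citrate synthase joins acetyl-CoA to oxaloacetate. Aconitase turns citrate into isocitrate, isocitrate dehydrogenases oxidise isocitrate to 2-oxoglutarate, and the 2-oxoglutarate dehydrogenase complex carries it on to succinyl-CoA. Human cells have separate isocitrate dehydrogenases: the NAD-dependent IDH3 of the mitochondrial matrix is the enzyme of the cycle itself, whereas IDH1 in the cytosol and peroxisomes and IDH2 in mitochondria use NADP and yield NADPH.

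The libraries held 16159934 to 16892139 reads in genes in E4F1 shRNA cells and 14947085 to 16284450 in control shRNA cells. E4F1 had 51, 53 and 41 reads in the E4F1 shRNA libraries, against 233, 286 and 297 in the control libraries, so the targeted mRNA followed the labels (log2 fold change −2.57, SE 0.135, edgeR adjusted p = 7.66e-10). On the first principal component, which took 53.9% of the variance, the control libraries were widely spread. Control libraries 3, 1 and 2 lay at −31.1, −20.92 and −9.85, whereas the E4F1 shRNA libraries lay at 17.49 to 22.68. A score over 32 cell cycle genes (mean log2 level relative to the 6 libraries) was 0.1589, 0.1694 and 0.0483 in the E4F1 shRNA libraries and −0.1641, 0.0626 and −0.2751 in the control libraries. Of 14 mesenchymal and osteosarcoma markers, 9 were present at 1 CPM or more in every library (CPM are reads scaled to the reads in genes of a library). Their summed level was 5269 to 5473 CPM in E4F1 shRNA cells and 5798 to 5984 CPM in control cells. Vimentin, SPARC and COL1A1 made up most of it, whereas TWIST1 had 0 reads throughout and the osteoblast markers SP7, BGLAP and IBSP had at most 4. The markers did not all move one way. Vimentin, COL1A1 and SPP1 passed the threshold as lower and TNFRSF11B as higher (24.2 CPM in E4F1 shRNA cells, against 13.1 CPM in control cells). FN1 had 1023 CPM in E4F1 shRNA cells and 952 CPM in control cells and did not pass. Blood cell markers summed to 2.26 to 4.15 CPM in E4F1 shRNA cells and 3.61 to 4.76 CPM in control cells, and endothelial markers to 10.3 to 12 and 9.71 to 11.7 CPM. Epithelial markers, nearly all KRT8 and KRT18, summed to 744 to 777 and 715 to 786 CPM, and adipose, muscle and neural markers to 7.14 to 7.42 and 10.1 to 14.4 CPM. The part of these marker levels in the results below was not tested.

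IDH1 mRNA was 2.51-fold higher in E4F1 shRNA cells than in control cells, while the other genes at the entry of the cycle lay within 1.21-fold of the control level in either direction. ACO1 was 1.17-fold higher. IDH3G and OGDH were 1.21-fold and 1.17-fold lower, and CS, IDH2, IDH3A, IDH3B and DLST did not pass the threshold. In all, 4 of the 9 genes passed an adjusted p of 0.05 (2 higher, 2 lower), beside 28.9% of all genes tested, 14.4% higher and 14.4% lower. The library values of both groups did not overlap in 4 of the 9, beside 41.8% of all genes tested. Nothing about the group is read from these counts, since the same comparison was known when the genes were chosen. The median log2 fold change of the 9 genes was −0.027, beside −0.0096 over all genes tested, and the median of its absolute size was 0.121, beside 0.179.

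**Figure D1:**
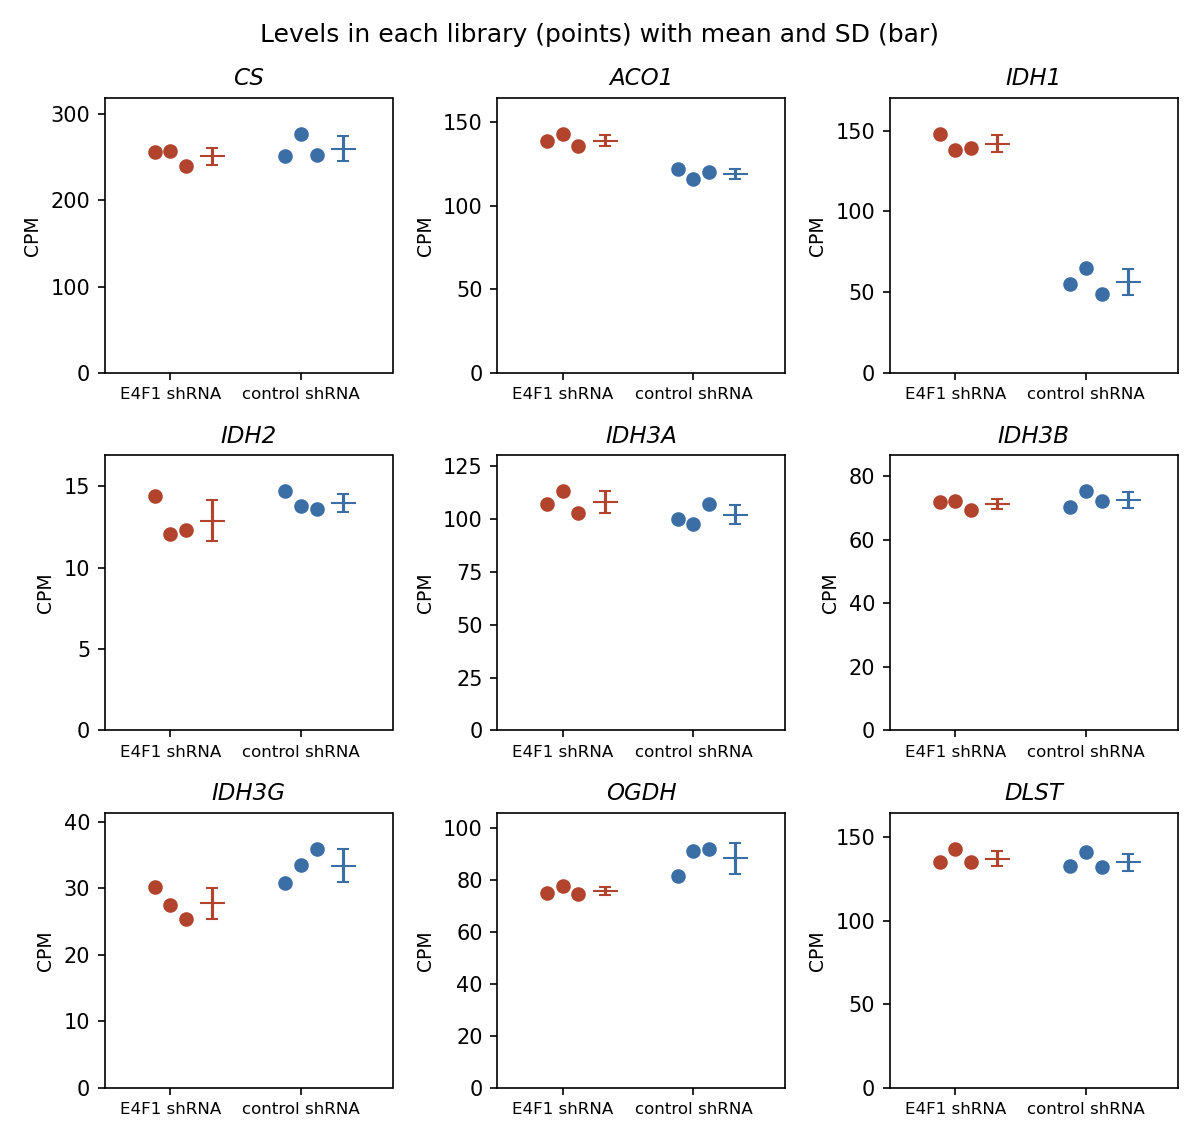
Level of each of the 9 genes in CPM (vertical axes, from 0) in the 3 E4F1 shRNA libraries (red) and the 3 control shRNA libraries (blue); points are libraries in the order 1, 2, 3, and the bar to their right is the mean with SD. IDH1 lies at 138 to 148 CPM in E4F1 shRNA cells and 49.0 to 64.7 CPM in control cells, while the groups overlap for CS, IDH2, IDH3A, IDH3B and DLST.

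CS encodes citrate synthase, the first enzyme of the cycle (GRCh38 chromosome 12, 56271699 to 56300392, minus strand). Its level was 256, 257 and 240 CPM in the E4F1 shRNA libraries, against 251, 277 and 253 CPM in the control libraries. The groups overlapped, with control library 2 highest. The log2 fold change was −0.05 (SE 0.055), with a 95% interval of −0.17 to 0.06. An annotated gene on the same strand, AC073896.1, overlaps CS, and reads shared by both were counted for neither.

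ACO1 (chromosome 9, 32384603 to 32454769, plus strand) encodes the cytosolic aconitase. When it lacks its iron-sulfur cluster the same protein is iron regulatory protein 1, which binds mRNAs of iron metabolism. ACO1 had 139, 143 and 136 CPM in the E4F1 shRNA libraries, against 122, 116 and 120 CPM in the control libraries. Every E4F1 shRNA library lay above every control library, and the spread within a group was small, 139 ± 3.31 CPM in E4F1 shRNA cells and 119 ± 2.98 CPM in control cells (SD, n = 3 each). The log2 fold change was 0.22 (SE 0.052) and stayed between 0.21 and 0.25 under the 14 alternative settings tried.

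IDH1 (chromosome 2, 208236227 to 208266074, minus strand) had 2371, 2318 and 2282 reads in the E4F1 shRNA libraries, against 827, 1046 and 762 in the control libraries. Scaled to library size this was 148, 138 and 139 CPM in E4F1 shRNA cells and 55.3, 64.7 and 49.0 CPM in control cells. The lowest E4F1 shRNA library was more than 2-fold above the highest control library. The means were 142 ± 5.45 CPM in E4F1 shRNA cells and 56.3 ± 7.91 CPM in control cells (SD, n = 3 each), and the log2 fold change was 1.33 (SE 0.077), with a 95% interval of 1.17 to 1.49. Among 10483 genes with an average log2 CPM of at least 3, 6 had a larger log2 fold change. Among the 2274 genes of any level that passed as higher, IDH1 was number 34 by log2 fold change. Both places are descriptions, since this comparison was known when the genes were chosen. The spread within groups was unequal, with a coefficient of variation of 3.85% in E4F1 shRNA cells and 14.0% in control cells. The control libraries were ordered 3, 1, 2 from low to high, the order of their cell cycle scores. The E4F1 shRNA libraries did not follow the order of theirs: library 2 had the highest score (0.1694) and the lowest IDH1 level (138 CPM). With that score as a covariate the log2 fold change of IDH1 was 1.09, still past the threshold.

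IDH2, the mitochondrial NADP-dependent enzyme, was at a far lower level (chromosome 15, 90083045 to 90102504, minus strand). It had 14.4, 12.1 and 12.3 CPM in the E4F1 shRNA libraries, against 14.7, 13.8 and 13.6 CPM in the control libraries. The groups overlapped, and the values rested on 201 to 230 reads in E4F1 shRNA libraries and 212 to 223 in control libraries. The log2 fold change was −0.12 (SE 0.102), with an interval of −0.34 to 0.09. Per kilobase of transcript the ratio of IDH1 to IDH2 was 11.4, 12.6 and 12.5 in the E4F1 shRNA libraries and 4.17, 5.18 and 3.97 in the control libraries. Within the NADP-dependent pair, the balance of mRNA thus lay further towards the cytosolic form in each E4F1 shRNA library.

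The NAD-dependent enzyme of the cycle is built from a catalytic alpha subunit (IDH3A), a beta subunit (IDH3B) and a regulatory gamma subunit (IDH3G). IDH3A (chromosome 15, 78131498 to 78171949, plus strand) had 107, 113 and 103 CPM in the E4F1 shRNA libraries, against 100, 97.8 and 107 CPM in the control libraries. The groups overlapped, and the log2 fold change was 0.09 (SE 0.058; 95% interval −0.03 to 0.21). The long non-coding RNA gene AC090260.1 overlaps IDH3A on the same strand, so shared reads were counted for neither here as well. IDH3B (chromosome 20, 2658395 to 2664219, minus strand) had 72.0, 72.4 and 69.5 CPM in the E4F1 shRNA libraries, against 70.3, 75.3 and 72.3 CPM in the control libraries. These groups overlapped too, and the log2 fold change was −0.03 (SE 0.057; 95% interval −0.15 to 0.09). The gamma subunit gene IDH3G (chromosome X, 153785766 to 153794523, minus strand) had 30.1, 27.5 and 25.4 CPM in the E4F1 shRNA libraries, against 30.8, 33.5 and 35.9 CPM in the control libraries. The groups did not overlap, but the highest E4F1 shRNA library and the lowest control library nearly touched. The log2 fold change was −0.27 (SE 0.082; 95% interval −0.45 to −0.10). It lost the threshold without E4F1 shRNA library 2, without E4F1 shRNA library 3, without control library 3 and with the cell cycle score fitted as a covariate. Its log2 fold change lay between −0.33 and −0.21 when a library was left out and was −0.28 with the score, where its SE was 0.116.

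Per kilobase, IDH3G made up 20.5% ± 1.17 of the mRNA of the 3 subunits in E4F1 shRNA cells and 23.9% ± 1.05 in control cells (SD, n = 3 each). IDH3A made up 28.8% ± 0.80 in E4F1 shRNA cells and 26.1% ± 1.07 in control cells. IDH3B held 50.8% ± 0.737 in E4F1 shRNA cells and 49.9% ± 1.52 in control cells. These shares depend on the 1 coding transcript used per gene, of 4128 bases for IDH3A and 1545 bases for IDH3B. Before scaling to length, IDH3A lay above IDH3B, at 108 against 71.3 CPM in E4F1 shRNA cells and 102 against 72.6 CPM in control cells. Over all isocitrate dehydrogenase mRNA, IDH1 held 37.8% ± 0.929 in E4F1 shRNA cells and 18.8% ± 2.26 in control cells, and the 3 IDH3 subunits together held 59.2% ± 1.07 and 76.9% ± 2.26. The sum of all isocitrate dehydrogenase mRNA was 154 ± 5.0 CPM per kilobase in E4F1 shRNA cells and 123 ± 4.04 in control cells. The summed level of the 9 genes was 965 ± 25.9 CPM in E4F1 shRNA cells and 881 ± 26.8 CPM in control cells; without IDH1 it was 823 ± 24.9 and 825 ± 21.0 CPM.

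**Figure D2:**
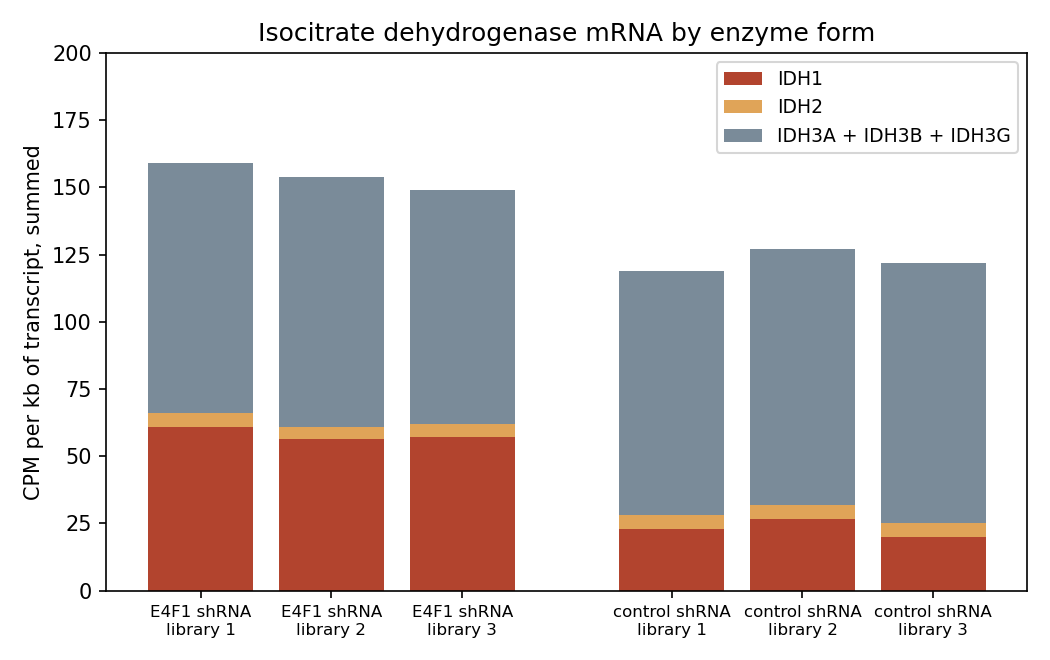
Summed level of the isocitrate dehydrogenase genes in CPM per kilobase of transcript (vertical axis) in each library, with E4F1 shRNA libraries at the left and control shRNA libraries at the right; segments are IDH1, IDH2 and the 3 IDH3 subunits. IDH1 takes 36.7% to 38.4% of each E4F1 shRNA bar and 16.4% to 20.9% of each control bar.

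OGDH and DLST encode the first and second enzyme of the 2-oxoglutarate dehydrogenase complex; DLST carries the lipoyl arm that passes the succinyl group on. OGDH (chromosome 7, 44606572 to 44709066, plus strand) had 74.9, 77.4 and 74.5 CPM in the E4F1 shRNA libraries, against 81.4, 91.1 and 91.8 CPM in the control libraries. The groups did not overlap, and control library 1 lay closest to the other group. The log2 fold change was −0.22 (SE 0.061; 95% interval −0.35 to −0.09), and it missed the threshold without E4F1 shRNA library 1 and with the cell cycle score in the fit. Its log2 fold change was −0.21 without that library and −0.25 with the score, where its SE was 0.083. DLST (chromosome 14, 74881891 to 74903745, plus strand) had 135, 143 and 135 CPM in the E4F1 shRNA libraries, against 133, 141 and 132 CPM in the control libraries. Here the groups overlapped, with library 2 highest in both, and the log2 fold change was 0.02 (SE 0.054; 95% interval −0.09 to 0.14). The ratio of OGDH to DLST per kilobase was 0.373 ± 0.00473 in E4F1 shRNA cells and 0.442 ± 0.0292 in control cells (SD, n = 3 each). DLD, the third enzyme, which the pyruvate dehydrogenase complex shares, had 144 ± 12.3 CPM in E4F1 shRNA cells and 149 ± 4.25 CPM in control cells and did not pass the threshold (edgeR adjusted p = 0.576).

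The order of the 9 genes by level per kilobase differed between groups, mainly in the place of IDH1. Within a group, the order depends on the transcript length used for each gene. ACO1 and OGDH also changed places, although their library values overlapped in E4F1 shRNA cells (18.2 to 19.1 and 17.8 to 18.5 CPM per kilobase). In E4F1 shRNA cells CS was highest at 84.4 CPM per kilobase, followed by IDH1 at 58.0, DLST at 48.4, IDH3B at 46.1, IDH3A at 26.1, ACO1 and IDH3G at 18.6 each, OGDH at 18.1 and IDH2 at 4.79. In control cells the order was CS at 87.5, DLST at 47.7, IDH3B at 47.0, IDH3A at 24.6, IDH1 at 23.1, IDH3G at 22.5, OGDH at 21.1, ACO1 at 16.0 and IDH2 at 5.21. Library values of neighbours overlapped for ACO1 with IDH3G and IDH3G with OGDH in E4F1 shRNA cells. In control cells they overlapped for DLST with IDH3B, IDH3A with IDH1, IDH1 with IDH3G and IDH3G with OGDH.

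The genes whose library pattern was nearest to that of IDH1 were ranked among 10081 other protein-coding genes, by Euclidean distance between log2 levels centred on each gene's own mean over the 6 libraries. They were CDS1, a CDP-diacylglycerol synthase gene (distance 0.244), CDK19, a kinase of the Mediator complex (0.268), USP14, a deubiquitinase of the proteasome (0.281), NDUFS3, a subunit of respiratory complex I (0.284), and DDIT4, an inhibitor of mTORC1 signalling (0.315). CDS1 had 15.8, 14.7 and 16.2 CPM in the E4F1 shRNA libraries, against 5.62, 5.88 and 5.08 CPM in the control libraries. NDUFS3 had 69.7, 74.8 and 72.9 CPM in the E4F1 shRNA libraries, against 29.8, 36.9 and 30.0 CPM in the control libraries. As with IDH1, control library 2 was the highest control for NDUFS3. For IDH3G the nearest were RPL36AL (0.0993), GPANK1 (0.101), CYP26B1 (0.103), MANBAL (0.104) and ISCU (0.107). Each of these had a log2 fold change between −0.34 and −0.24. Since the ranking used the same library levels, similar fold changes follow from it, for the genes near IDH1 as well.

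The heptamer CTTATCT is shown because earlier results of this comparison had singled it out in 3′ untranslated regions (UTRs) of genes higher in E4F1 shRNA cells, so it lends no independent support here. Of the 9 genes only IDH1 held it. It stood in the 3′ UTR of 1340 of 12998 tested genes with an annotated 3′ UTR, or 10.3%. The UTRs of the other genes were 106 bases (IDH3G) to 4658 bases (ACO1) long. In IDH1 the site lies at chr2:208236274-208236280 on the minus strand, bases 799 to 805 of an 814-base UTR, only 9 bases before the annotated end, and all 3 complete coding transcripts of IDH1 reach it. The sites of IDH1, of the genes near it in pattern that hold one, and of PCK2 and IREB2, described below, are given 5′ to 3′ from GENCODE 29 transcripts on GRCh38, with the heptamer in capitals.
IDH1: aaacactatCTTATCTtctcctgaa
CDK19: ctttctgaaCTTATCTacctggtta
USP14: atcctttgcCTTATCTaacaaacat
NDUFS3: agacagcgcCTTATCTatgattgag
PCK2: taagagatgCTTATCTattttacac
IREB2: gtatactcaCTTATCTcatccatgg
CDS1 and DDIT4, also near IDH1 in pattern, did not hold the heptamer. None of 2370 human mature miRNAs in the RefSeq table had the complementary seed AGAUAAG at bases 2 to 8 (0 of 2370). The lookup covered these miRNAs only, and the shRNAs given to the cells were not compared with the heptamer. Of 81 tested genes in the pathway lists described below, 6 held the heptamer, of which PCK2, IREB2 and SLC40A1 rose, none fell, and OGDHL, SDHC and LIAS did not pass the threshold, beside 14.4% higher and 14.4% lower over all genes tested. SLC40A1 did not pass with the cell cycle score in the fit (log2 fold change 0.31, edgeR adjusted p = 0.0618, against 0.27 without the score).

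Among the 9 genes, 5 had a gene on the opposite strand starting within 2000 bases, and 2 of these partners were expressed enough to be tested. IDH3G starts 63 bases from SSR4, a gene for a subunit of the translocon-associated complex of the endoplasmic reticulum, and both annotations overlap head to head. SSR4 had 73.8, 79.3 and 78.4 CPM in the E4F1 shRNA libraries, against 94.5, 88.7 and 93.8 CPM in the control libraries. It fell, like IDH3G, without overlap between groups (log2 fold change −0.26, SE 0.057, edgeR adjusted p = 0.00279). With the score as a covariate SSR4 had a log2 fold change of −0.19 and did not pass the threshold (edgeR adjusted p = 0.136; log2 fold changes of −0.28 to −0.19 over 14 settings). AC073896.2, which starts 188 bases from CS, had 2.24 ± 0.188 CPM in E4F1 shRNA cells and 2.17 ± 0.633 CPM in control cells and did not pass (edgeR adjusted p = 0.93). IDH1-AS1, which starts 114 bases from IDH1, had 5, 6 and 2 reads in the E4F1 shRNA libraries, against 1, 1 and 5 in the control libraries. IDH2-DT had 0 reads in all 6 libraries, which allows up to 0.178 to 0.187 CPM in E4F1 shRNA libraries and 0.185 to 0.2 CPM in control libraries, and AL049712.1 beside IDH3B had at most 2 reads.

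**Figure D3:**
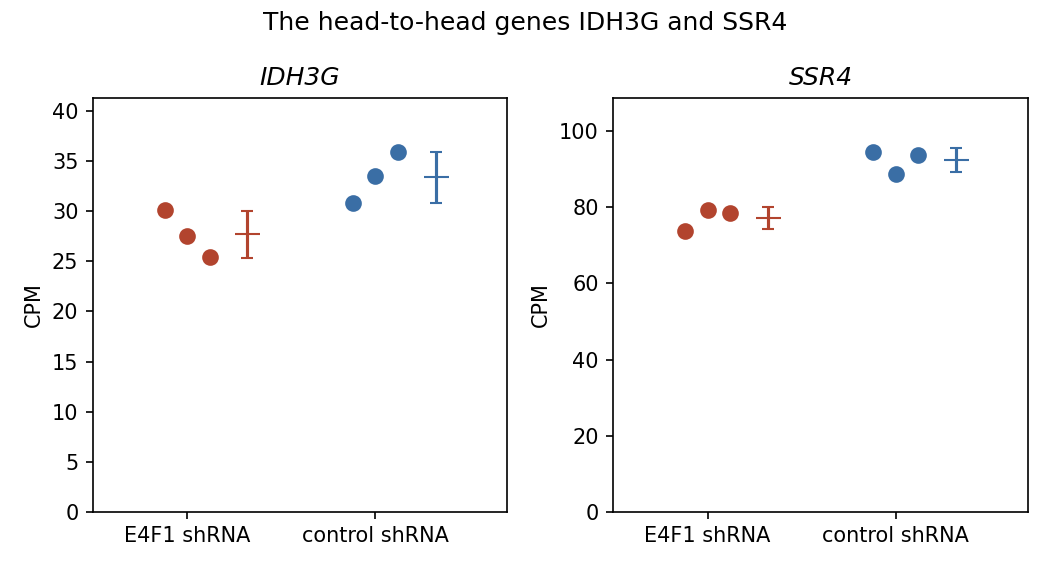
Level in CPM (vertical axes, from 0) of the neighbouring genes IDH3G and SSR4, which are transcribed away from a shared start region, in E4F1 shRNA libraries (red) and control shRNA libraries (blue), with mean and SD to the right of the points. Each gene lies lower in all 3 E4F1 shRNA libraries, at 25.4 to 30.1 CPM for IDH3G and 73.8 to 79.3 CPM for SSR4.

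Promoter windows of RefSeq on GRCh38.p14, 250 bases before to 50 after each start, were at hand for 8 of the 9 genes (9 windows, with 2 for IDH1 and none for OGDH). The IDH2 window (chr15:90100572-90100871) lay inside the gene. It did not reach the IDH2 start used for partners above (base 90102504), so the sequence around that start was not searched. TGACGT, letters shared by the recognised sequences of the ATF/CREB family and of E4F1, was found on either strand in the window of IDH3G alone, with 2 forward matches, beside 7.98% of 35116 RefSeq windows. The motif of the factor NRF1 was found for IDH3A and IDH3G, beside 5.78% of all windows. CCAAT was in 3 of the 9 windows (34.6% of all) and GGGCGG in 6 (45.0%). TGATGNAA, the composite sequence bound by ATF4 with C/EBP factors, was in 0 of the 9 (3.62% of all). None of these motifs contains another. The IDH3G window is printed because it spans the start of SSR4 (base 153794449) as well. It covers chrX:153794326-153794625, read on the minus strand, with both TGACGT matches in capitals.
IDH3G: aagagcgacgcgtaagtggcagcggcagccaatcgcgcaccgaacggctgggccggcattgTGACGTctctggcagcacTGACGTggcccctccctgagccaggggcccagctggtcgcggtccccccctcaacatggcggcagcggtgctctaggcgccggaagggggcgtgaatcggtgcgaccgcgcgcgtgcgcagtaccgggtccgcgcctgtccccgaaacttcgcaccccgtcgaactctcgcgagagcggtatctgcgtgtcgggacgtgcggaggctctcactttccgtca
A match is a run of letters and was not tested as a bound site.

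The neighbouring pathways were followed in 6 lists with 83 genes that are not among the 9. Of 81 tested, 18 rose, 12 fell and 51 did not pass, beside 14.4% higher and 14.4% lower over all genes tested, shares that hold as the background for each list below. The 81 genes had a median log2 fold change of 0.010, beside −0.0096 over all genes tested. With the score as a covariate 12 passed, 10 of them higher, beside 1267 of all 15765 genes. Up to 4 genes per list are named by smallest adjusted p, and any others were named after their values had been seen.

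The rest of the TCA cycle had 1 gene that rose and 2 that fell among 19. SUCLA2, the ADP-forming succinyl-CoA ligase subunit, rose to 37.8 ± 0.912 CPM in E4F1 shRNA cells, against 32.7 ± 0.771 CPM in control cells (log2 fold change 0.21, edgeR adjusted p = 0.026). MDH2, mitochondrial malate dehydrogenase, fell (197 ± 6.56 CPM in E4F1 shRNA cells, against 219 ± 5.08 CPM in control cells; edgeR adjusted p = 0.0282), as did SDHAF2, an assembly factor of succinate dehydrogenase (log2 fold change −0.41, edgeR adjusted p = 0.0432). All 3 calls were lost with the score as a covariate (edgeR adjusted p = 0.17 for SUCLA2, 0.13 for MDH2 and 0.218 for SDHAF2), although the log2 fold changes, 0.23, −0.18 and −0.44 in that order, were no smaller. The count of 3 became 0 without E4F1 shRNA library 1 or without control library 1, 1 without E4F1 shRNA library 2 or without control library 3, 5 without control library 2, and 1 by the DESeq2 Wald test.

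Among the genes that supply or carry citrate and 2-oxoglutarate, 6 of 16 tested rose and 2 fell, with a median log2 fold change of 0.211. GLUD1, the glutamate dehydrogenase that makes 2-oxoglutarate from glutamate, rose to 93.3 ± 2.92 CPM in E4F1 shRNA cells, against 56.9 ± 4.15 CPM in control cells (log2 fold change 0.71, edgeR adjusted p = 4.51e-07). GLUD2 is a near-identical copy of GLUD1, so how reads fell between them is uncertain. PCK2, mitochondrial phosphoenolpyruvate carboxykinase, rose to 50.3 ± 3.93 CPM in E4F1 shRNA cells, against 21.6 ± 4.94 CPM in control cells (log2 fold change 1.22, edgeR adjusted p = 7.16e-07). PSAT1, which forms 2-oxoglutarate in serine synthesis, rose by 0.71 on the log2 scale (edgeR adjusted p = 7.59e-06). The 2 that fell were ACLY, which splits citrate in the cytosol (365 ± 16.1 CPM in E4F1 shRNA cells, against 415 ± 11.5 CPM in control cells), and SLC25A1, the mitochondrial citrate carrier (48.4 ± 4.48 CPM, against 56.8 ± 1.6 CPM). With the covariate, 3 genes of the list passed and all 3 were higher. Without control library 3, 5 passed.

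Of 15 other genes tied to NADPH, 5 rose and 2 fell, with a median log2 fold change of −0.049. NADK2, the mitochondrial NAD kinase, rose to 58.0 ± 1.45 CPM in E4F1 shRNA cells, against 37.5 ± 3.29 CPM in control cells (log2 fold change 0.63, edgeR adjusted p = 5.85e-06). The mitochondrial folate enzymes MTHFD2 (631 ± 33.3 CPM in E4F1 shRNA cells, against 445 ± 27.4 CPM in control cells; edgeR adjusted p = 7.92e-06) and ALDH1L2 (44.5 ± 2.62 CPM, against 26.8 ± 3.24 CPM; edgeR adjusted p = 8.42e-06) rose as well. ME2, a mitochondrial malic enzyme, rose by 0.27 on the log2 scale (edgeR adjusted p = 0.00249), a call lost with the covariate (log2 fold change 0.16, edgeR adjusted p = 0.241). PGLS, an enzyme of the oxidative pentose phosphate pathway, fell to 7.57 ± 0.591 CPM in E4F1 shRNA cells, against 10.4 ± 1.24 CPM in control cells (log2 fold change −0.46, edgeR adjusted p = 0.0102), and did not pass with the covariate (log2 fold change −0.23, edgeR adjusted p = 0.487).

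In the list on hydroxyglutarate, D2HGDH, which oxidises the D form to 2-oxoglutarate, had 4.59 ± 0.461 CPM in E4F1 shRNA cells and 5.51 ± 0.965 CPM in control cells (edgeR adjusted p = 0.232). ADHFE1 had 0.894 ± 0.388 CPM in E4F1 shRNA cells and 0.855 ± 0.104 CPM in control cells and did not pass (edgeR adjusted p = 0.916).

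No gene rose and 2 fell among the 12 that attach lipoate to the 2-oxoglutarate dehydrogenase complex or look after it. MCAT fell to 12.9 ± 0.916 CPM in E4F1 shRNA cells, against 19.2 ± 2.16 CPM in control cells (log2 fold change −0.57, edgeR adjusted p = 0.000559). MECR fell by 0.32 on the log2 scale (edgeR adjusted p = 0.0249), and had −0.07 with the covariate (edgeR adjusted p = 0.823). Both encode enzymes of mitochondrial fatty acid synthesis, the source of the octanoyl chain of lipoate. Without any 1 of E4F1 shRNA libraries 1 and 2 and control libraries 1 and 3, the count was 1.

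In the list on iron around ACO1, 5 of 16 genes rose and 4 fell, with a median log2 fold change of −0.015. IREB2, which encodes iron regulatory protein 2 and so the counterpart of ACO1, rose to 155 ± 3.0 CPM in E4F1 shRNA cells, against 121 ± 4.94 CPM in control cells (log2 fold change 0.35, edgeR adjusted p = 1.1e-04). CIAO3 of the cytosolic iron-sulfur assembly machinery rose to 26.4 ± 1.72 CPM in E4F1 shRNA cells, against 15.7 ± 1.92 CPM in control cells (log2 fold change 0.75, edgeR adjusted p = 2.15e-05). CIAO2B of the same machinery fell by 0.36 on the log2 scale (edgeR adjusted p = 0.00163). FTL, the ferritin light chain, fell by 0.22 (edgeR adjusted p = 0.00484), and did not pass with the covariate (log2 fold change −0.17, edgeR adjusted p = 0.141). With the covariate 4 of the 16 passed, 3 of them higher.

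**Figure D4:**
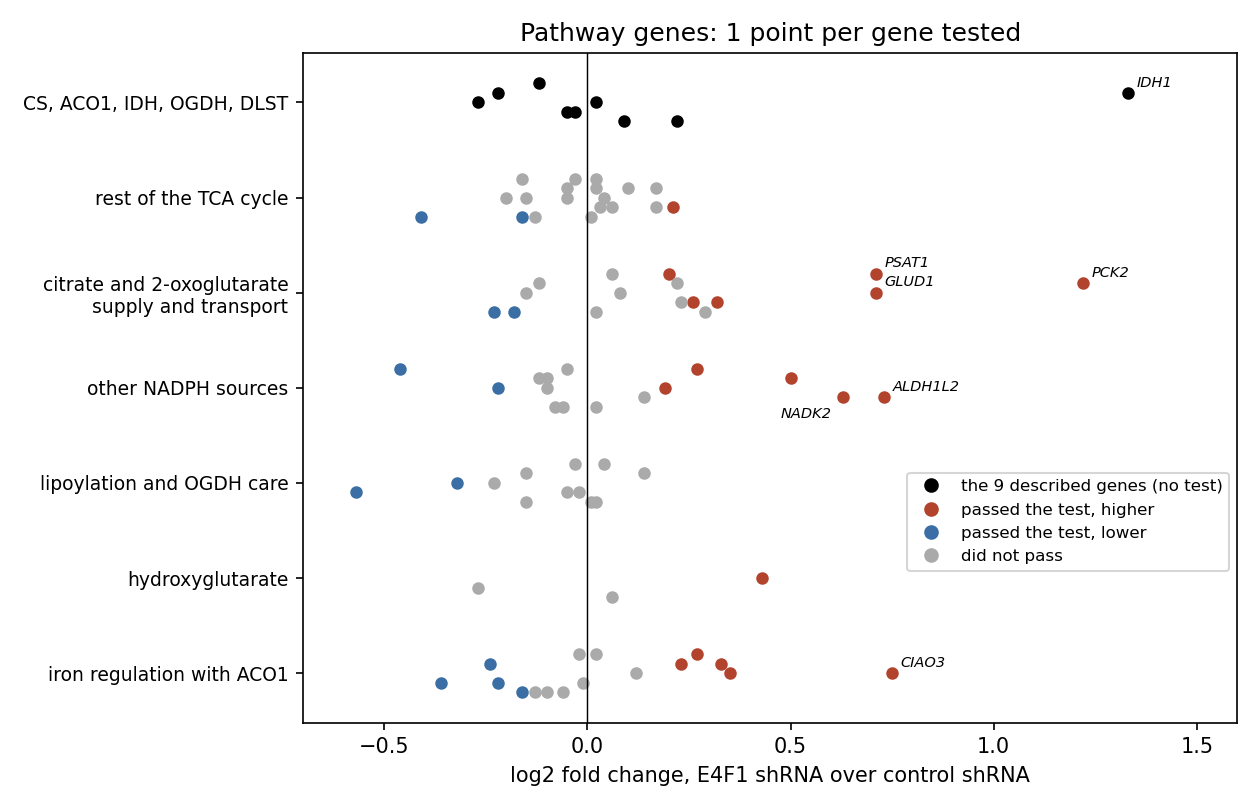
Log2 fold change of E4F1 shRNA over control shRNA (horizontal axis) for the 9 described genes (black, shown without a test) and the tested genes of 6 pathway lists (rows); red and blue mark genes that passed the edgeR test as higher and lower, grey those that did not. IDH1 at 1.33 and PCK2 at 1.22 lie farthest to the right, and most other genes lie within 0.5 of 0.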

How the data were processed

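Polyadenylated RNA of 3 E4F1 shRNA and 3 control shRNA pools of U2OS cells was sequenced. The submitters' processing notes name bcl2fastq 2.20, STAR 2.5.1b and the build GRCh38. For the annotation release nothing was given in the sources used here. Each deposited table, 1 for every library, lists unnormalised counts by gene in 3 columns: without strand, forward and reverse. The reverse-strand column held nearly all reads in genes and was used, so antisense genes were counted apart. Lines for reads in no single gene made up 27.1% to 31.7% of the tables and were left out of depth and tests. Gene names and coordinates came from GENCODE 29 on GRCh38; of 58219 identifiers, 57881 matched without the version and 55050 with it.

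Counts were tested in edgeR 4.0.16 (R 4.3.3) by the two-sided quasi-likelihood F-test, after filterByExpr and TMM scaling, with group as the only term and Benjamini-Hochberg adjustment over 15765 genes; the threshold was 0.05. CPM are TMM-scaled, as mean ± SD. Levels per kilobase used the length of 1 coding transcript per gene. The steps were tested on simulated data. Replicates of a group differed by more than sampling noise (mean chi-square per gene 2.45 to 6.36). The genes, lists, markers and motifs were chosen with earlier results of these data known. Named were the 9 genes, E4F1, up to 4 genes per list with the smallest adjusted p (all of a list of 5 or fewer), partners starting within 2000 bases on the opposite strand, and the 5 genes nearest in pattern to the highest and the lowest of the 9. Values of a few of these genes are not reported here. As alternatives, the Wald test of DESeq2 1.42.0, limma-voom (limma 3.58.1), edgeR with size factors of DESeq2, no filter, a filter of 1 CPM in 3 libraries, a block for replicate number, counts ignoring strand, the cell cycle score as covariate and leaving out each library were tried.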

Additional observations from a re-analysis of the deposited data

Results flagged for a closer look

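Reads on the strand opposite to IDH1, which no comparison above uses, were more numerous in the E4F1 shRNA libraries. They numbered 13, 17 and 21 in the E4F1 shRNA libraries, 51 in all, against 6, 9 and 11 in the control libraries, 26 in all. As a share of the reads on both strands they were 0.545%, 0.728% and 0.912% in the E4F1 shRNA libraries, against 0.72%, 0.853% and 1.42% in the control libraries, so the shares overlapped. The annotated antisense gene IDH1-AS1 is counted on that strand and held 5, 6 and 2 reads in the E4F1 shRNA libraries, against 1, 1 and 5 in the control libraries. The difference was not tested.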

How the results depend on the processing

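IDH1 passed the threshold under all 14 alternatives, with log2 fold changes of 1.24 to 1.45 when a library was left out (1.45 without control library 2), 1.09 with the score of cell cycle genes as covariate and 1.33 with the replicate number as a block. E4F1 stayed between −2.63 and −2.45 when a library was left out. For the other 8 genes, 106 of 112 values kept their side of the threshold, and 6, all of IDH3G or OGDH, did not pass. All settings reuse the libraries whose comparison was known when the genes were chosen. Passing them is therefore a description of the 9 genes and lends no independent support. The covariate lowered the count of the 9 genes called to 2. Over all genes the count became 1267 (744 higher and 523 lower, or 58.7% higher, against 2274 and 2276 without it). It became 12 for listed pathway genes and 0 for opposite-strand partners. The covariate leaves fewer degrees of freedom, and the score itself ran largely with group. It was 0.1589, 0.1694 and 0.0483 in E4F1 shRNA libraries, against −0.1641, 0.0626 and −0.2751 in control libraries. For a call lost with the covariate, score and group therefore cannot be told apart. When a library was left out, the 9 genes gave 3 to 4 calls, all genes 3031 (without E4F1 shRNA library 2) to 5370 (without control library 2), pathway genes 20 to 33 and partners 1 to 1. The block gave 4865 calls over all genes, but same-numbered libraries did not deviate together (correlations of 0.007, 0.047 and 0.048), so the numbers were not taken as pairs. DESeq2 called 3728 genes and limma-voom 4456.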
